A study of Mus musculus with 309 samples.

Results

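Mammary tumours of the mouse model p53RB-426 that had been given anti-PD1 + anti-CTLA4 (3 tumours) were compared with untreated p53RB-426 tumours (3 tumours). The 6 tumours were picked by model and treatment in their titles, out of 309 tumours of 24 models, and differ in the labels only by treatment, library number and survival. The title of the series places it under triple-negative breast cancer. Poly(A) RNA of each homogenised frozen tumour was sequenced in bulk, and the arms are called antibody tumours 1 to 3 and untreated tumours 1 to 3, numbered by library number. A median survival of 12 days is labelled for the antibody arm, against 9 days for the untreated arm. The labels do not give the alleles behind the model's name, the host strain, sex, age, dose, schedule or time of collection. They also do not say that each tumour came from its own mouse, so the p-values below measure the spread between these tumours only. The same model had 9 further tumours, 3 each under trametinib, erlotinib and carboplatin + paclitaxel.

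PD1 and CTLA4 are inhibitory receptors of T cells. CTLA4 competes with the activating receptor CD28 for the ligands CD80 and CD86, and is abundant on regulatory T cells. PD1 damps signalling from the T cell receptor when it binds PD-L1 or PD-L2, which tumour and myeloid cells display, often under interferon gamma. Antibodies against either receptor can release cytotoxic T cells, which kill by perforin and granzymes.

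The libraries held 101128129 to 119956913 counts in the antibody arm, against 80159317 to 97300006 counts in the untreated arm. Levels are given as CPM, a gene's counts brought to a common library total, with the totals adjusted by the TMM method. A gene was called where edgeR's quasi-likelihood test gave a Benjamini-Hochberg adjusted p under 0.05 over all 17284 genes tested. Differences are on the log2 scale, antibodies minus untreated, ± SE. Exact permutation of 3 tumours against 3 cannot give a two-sided p below 0.1, so all tests here rest on the spread modelled across genes. Krt8, a keratin of simple epithelium, was abundant in every tumour. It had 687, 726 and 637 CPM in the antibody-treated tumours, against 656, 547 and 493 CPM in the untreated tumours. Epcam, an epithelial adhesion molecule, lay at 1.24, 0.893 and 1.17 CPM in the antibody-treated tumours, against 2.04, 3.16 and 2.36 CPM in the untreated tumours. Of 23 listed epithelial and tight junction genes, 13 were under 1 CPM in all antibody-treated tumours. Vim, a mesenchymal filament, lay at 4163, 4314 and 3816.6 CPM in the antibody-treated tumours, against 3361, 2919 and 2809 CPM in the untreated tumours.

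The 2 arms also differ in a library property that divides untreated tumours of other models as well. Summed over 4 predicted genes (Gm49369, Gm49450, Gm28037 and Gm50139, picked after the data were seen), the level was 0.247 to 0.327 CPM in the 3 antibody libraries, against 176 to 253 CPM in the other 12 p53RB-426 libraries, untreated ones included. In the model p53RB-626 the same genes divide the untreated tumours among themselves, with 0 to 2.16 CPM in the 3 later-numbered libraries, against 173 to 274 CPM in the 3 earlier-numbered ones. Between these untreated groups 5528 of 16566 genes were called (33.4%), 2635 higher and 2893 lower in the later libraries. They included 2219 of the genes called for the antibodies in p53RB-426, which is 38.2% of the antibody calls and 40.1% of the p53RB-626 calls, 1796 of them in the same direction and 423 in the opposite one. In untreated KPB1-B tumours, whose libraries divide likewise, 267 of 18049 genes were called (1.48%), and 167 of these were among the antibody calls. Those 167 are 62.5% of the KPB1-B calls and 2.87% of the antibody calls, 151 of them in the same direction and 16 in the opposite one. Treatment and library set cannot be told apart in p53RB-426, and the counts of members called between the untreated p53RB-626 groups, later against earlier libraries, are given below beside each gene list as the nearest measure of the library set.

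Between the antibody-treated and the untreated p53RB-426 tumours 5813 of 17284 genes were called (33.6%): 3027 rose (17.5%) and 2786 fell (16.1%). Without the genes that were also called between the untreated p53RB-626 groups, 2031 rose and 1563 fell of 11849. limma on the authors' normalized table gave 2364 rises and 3145 falls, and upper quartile factors 2791 and 3016, so which direction held more calls depended on the scaling. Leaving out untreated tumour 2 lowered the total to 3367, and leaving out antibody tumour 3 raised it to 5968. The largest rises were in haemoglobins, the granzymes of the d to g group, the chitinase-like Chil3 and perforin. The largest falls were in genes of skeletal muscle and in Abi3bp (-3.47 ± 0.57), Fhl1 (-3.28 ± 0.31), Erdr1 (-3.03 ± 0.26) and the elastic fibre gene Eln (-2.87 ± 0.77). Erdr1 differed as much between the untreated p53RB-626 groups (-3.34). With 1 tumour left out, calls were lost: that of Eln without antibody tumours 1 and 2 (up to 0.070). Wherever leaving out 1 of the 6 tumours ended a call, the tumours are named with the highest adjusted p of those fits in brackets. A called gene without such a remark kept its call in all 6 of these fits.

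**Figure D1:**
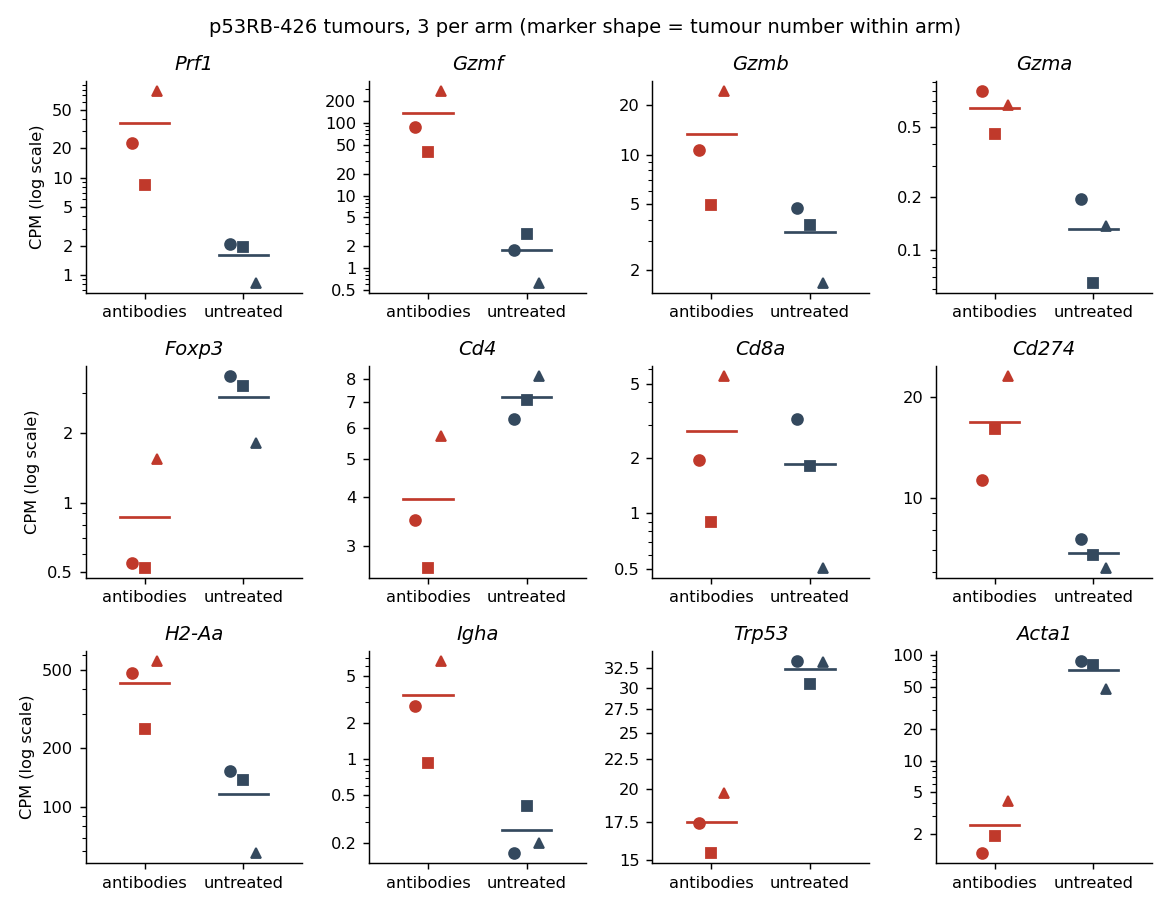
CPM of single genes in each of the 6 p53RB-426 tumours, on a log axis; each point is a tumour, antibody-treated tumours left of untreated ones. Prf1 and Gzmf lie between 8.34 and 281 CPM in the antibody-treated tumours, against 0.618 to 2.97 CPM in the untreated tumours.

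Perforin and the near-identical granzymes d to g, which lie together on chromosome 14, were far higher after the antibodies. Prf1, the pore former of killer cells, had 22.5, 8.34 and 78.2 CPM in the antibody-treated tumours, against 2.10, 1.92 and 0.828 CPM in the untreated tumours (log2 difference 4.48 ± 0.80, adjusted p = 0.0041). The lowest antibody-treated tumour, number 2, stood above the highest untreated one. Gzmf had 87.7, 40.5 and 281 CPM in the antibody-treated tumours, against 1.76, 2.97 and 0.618 CPM in the untreated tumours (log2 difference 6.24 ± 0.84, adjusted p = 0.0013), with the same order among the tumours: number 3 highest and number 2 lowest. Its neighbours showed the same pattern in Gzmg (6.07 ± 0.92), Gzmd (5.91 ± 0.86) and Gzme (5.57 ± 0.91). These genes are near-identical copies that share reads, so the level of a single one is uncertain, and in mouse they are known from activated T cells, uterine NK cells and, for some, mast cells. Between the untreated p53RB-626 groups Prf1 differed by 0.69 (adjusted p = 0.080) and Gzmf by 0.95 (adjusted p = 0.047).

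The sequences upstream of the cluster are shown because Gzmd, Gzme, Gzmf and Gzmg moved together and share reads. Gzmc, for which no level is given here, is printed beside them. RefSeq's mouse table (GRCm38.p6) gave windows of 250 bases before the annotated start, of which 100 bases are printed 5′ to 3′ on the gene's strand. Capitals mark a run of 20 bases that all 5 windows share.
Gzmc chr14:56234658-56234757 (- strand): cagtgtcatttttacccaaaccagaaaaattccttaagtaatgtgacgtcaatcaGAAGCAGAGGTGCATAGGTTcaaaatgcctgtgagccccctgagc
Gzmd chr14:56132594-56132693 (- strand): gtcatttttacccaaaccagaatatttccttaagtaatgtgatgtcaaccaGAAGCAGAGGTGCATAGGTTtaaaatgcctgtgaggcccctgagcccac
Gzme chr14:56120626-56120725 (- strand): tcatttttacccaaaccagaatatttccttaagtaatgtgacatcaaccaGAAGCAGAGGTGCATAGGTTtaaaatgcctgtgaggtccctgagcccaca
Gzmf chr14:56211418-56211517 (- strand): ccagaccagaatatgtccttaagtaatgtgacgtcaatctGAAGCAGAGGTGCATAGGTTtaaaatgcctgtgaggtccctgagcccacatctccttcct
Gzmg chr14:56159585-56159684 (- strand): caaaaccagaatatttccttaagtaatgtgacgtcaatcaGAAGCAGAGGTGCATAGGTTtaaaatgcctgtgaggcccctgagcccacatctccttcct
The run GAAGCAGAGGTGCATAGGTT, searched on the gene's own strand only, was found in 5 of 32851 promoter windows of the table, and all 5 are those printed. It is a description of how alike the copies are and not a binding site.

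Other killer cell genes changed in part. Gzma, a granzyme of T and NK cells, was low but higher, with 0.805, 0.457 and 0.665 CPM in the antibody-treated tumours, against 0.194, 0.0645 and 0.136 CPM in the untreated tumours (log2 difference 2.28 ± 0.42, adjusted p = 0.0050). Gzmb, the classical granzyme of CD8 T cells, had 10.7, 4.91 and 24.4 CPM in the antibody-treated tumours, against 4.70, 3.72 and 1.66 CPM in the untreated tumours (log2 difference 1.99 ± 0.57, adjusted p = 0.028). Its groups did not overlap, yet antibody tumour 2 stood barely above untreated tumour 1. Klrg1, a receptor of effector T and NK cells, rose (2.13, adjusted p = 0.022), and Eomes, a transcription factor of memory T and NK cells, fell (-1.05, adjusted p = 0.0072). Of 19 tested members of the list of cytotoxic effectors (20 in all), 4 rose (21.1%) and 1 fell, against 17.5% and 16.1% of all genes, and the median was 1.05 against 0.00 over all genes. Leaving out antibody tumour 2 raised the number of rising members to 10, and leaving out untreated tumour 2 or 3 lowered it to 2. Calls lost with 1 tumour left out were that of Gzmb without antibody tumours 1 and 3 or untreated tumours 2 and 3 (up to 0.086), that of Klrg1 without untreated tumours 1, 2 and 3 (up to 0.058). In the untreated p53RB-626 groups 2 of the 18 members tested there were called higher, Klrg1 among them (1.03, adjusted p = 0.0082).

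T cell identity did not follow perforin. Of 20 members 1 rose and 1 fell (5% each way, against 17.5% and 16.1% of all genes), with a median of 0.25. Cd3e, a subunit of the T cell receptor complex, had 1.33, 0.675 and 3.48 CPM in the antibody-treated tumours, against 2.27, 2.04 and 0.779 CPM in the untreated tumours (adjusted p = 0.91), and Cd8a, the coreceptor of cytotoxic T cells, had 1.94, 0.904 and 5.53 CPM in the antibody-treated tumours, against 3.24, 1.81 and 0.507 CPM in the untreated tumours (adjusted p = 0.56). Antibody tumour 3 had the highest level of both, and antibody tumour 2 and untreated tumour 3 had the lowest, so the spread within the arms was as wide as between them. Cd4, the coreceptor of helper and regulatory T cells, fell, with 3.49, 2.64 and 5.71 CPM in the antibody-treated tumours, against 6.31, 7.06 and 8.14 CPM in the untreated tumours (log2 difference -0.86 ± 0.27, adjusted p = 0.038). Trbc1, a constant segment of the beta chain, rose (2.02, adjusted p = 0.033), but it was also called higher in the later untreated p53RB-626 libraries (0.65, adjusted p = 0.012). There 3 of 20 members were higher and 0 lower, and of the 17 members not called there 0 rose and 1 fell here. Leaving out 1 tumour ended calls: that of Cd4 without antibody tumours 1 and 2 or untreated tumours 1, 2 and 3 (up to 0.12), that of Trbc1 without antibody tumours 1 and 3 or untreated tumours 1, 2 and 3 (up to 0.078). Counts over all T cell receptor segments were 4.51 to 14.3 CPM in the antibody-treated tumours, against 3.66 to 8.20 CPM in the untreated tumours. In bulk tumours fewer cells of a type and less RNA per cell cannot be told apart, here and for every cell type below.

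Among the checkpoint receptors the targets themselves were not called. Pdcd1, which encodes PD1, had 1.65, 0.737 and 4.43 CPM in the antibody-treated tumours, against 1.32, 0.956 and 0.433 CPM in the untreated tumours (log2 difference 1.33 ± 0.63, adjusted p = 0.13), and only antibody tumours 1 and 3 exceeded every untreated tumour. Ctla4 had 0.872, 0.363 and 2.55 CPM in the antibody-treated tumours, against 1.82, 1.48 and 0.779 CPM in the untreated tumours (log2 difference -0.10 ± 0.62, adjusted p = 0.91), and the arms overlapped. Foxp3, the defining factor of regulatory T cells, fell, with 0.545, 0.519 and 1.54 CPM in the antibody-treated tumours, against 3.55, 3.21 and 1.82 CPM in the untreated tumours (log2 difference -1.72 ± 0.45, adjusted p = 0.021). Tnfrsf9, the costimulatory receptor 4-1BB, rose, with 71.0, 102 and 87.4 CPM in the antibody-treated tumours, against 39.4, 36.6 and 29.5 CPM in the untreated tumours (log2 difference 1.30 ± 0.15, adjusted p = 0.00076), and so did Lag3 (1.04, adjusted p = 0.0096), an inhibitory receptor. Lower were Tox (-2.06, adjusted p = 0.027), a factor of exhausted T cells, Btla (-1.59, adjusted p = 0.017), an inhibitory receptor, Lrrc32 (-0.87, adjusted p = 0.0033), which holds latent TGF-beta on regulatory T cells, and Tnfrsf4 (-0.50, adjusted p = 0.032), the receptor OX40. In all, 2 of 20 members rose and 5 fell (25.0%, against 16.1% of all genes), but only 1 fell without untreated tumour 1 or 2 and 2 without antibody tumour 1. Of these calls, some were lost with 1 tumour left out: that of Foxp3 without antibody tumours 1 and 2 or untreated tumours 1 and 2 (up to 0.072), that of Tox without antibody tumours 1 and 2 or untreated tumours 1 and 2 (up to 0.11), that of Btla without untreated tumours 1 and 2 (up to 0.072), that of Tnfrsf4 without antibody tumours 1 and 3 or untreated tumours 1, 2 and 3 (up to 0.094). In the later untreated p53RB-626 libraries Foxp3 was not called (-1.06, adjusted p = 0.15), where 3 of 18 members were higher and 2 lower, and without genes called there 2 members rose and 2 fell of 15.

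Several ligands of these receptors were higher. Cd274, which encodes PD-L1, had 11.3, 16.1 and 23.2 CPM in the antibody-treated tumours, against 7.55, 6.76 and 6.17 CPM in the untreated tumours (log2 difference 1.30 ± 0.24, adjusted p = 0.0047), and every antibody-treated tumour exceeded every untreated one. Cd86, a shared ligand of CD28 and CTLA4 on antigen-presenting cells, had 13.3, 13.04 and 13.8 CPM in the antibody-treated tumours, against 7.60, 8.08 and 7.51 CPM in the untreated tumours (log2 difference 0.79 ± 0.10, adjusted p = 0.0013), with little spread in either arm. Cd40 (0.82, adjusted p = 0.0055), Pvr (0.48, adjusted p = 0.020), a ligand of TIGIT, and Pdcd1lg2, which encodes PD-L2 (2.06, adjusted p = 0.048), also rose, although the arms overlapped for Pdcd1lg2. Cd80 was not called (0.16, adjusted p = 0.68). Tnfsf18, the ligand of GITR (-2.16, adjusted p = 0.010), and Cd276, the B7-H3 molecule (-0.45, adjusted p = 0.033), fell. That makes 5 of 14 tested ligands higher (35.7%, against 17.5% of all genes) and 2 lower, with 3 higher without antibody tumour 1 or untreated tumour 1 or 2. With 1 tumour left out, calls were lost: that of Pvr without antibody tumours 1 and 2 or untreated tumours 1 and 2 (up to 0.085), that of Pdcd1lg2 without antibody tumours 1 and 3 or untreated tumours 1, 2 and 3 (up to 0.14), that of Cd276 without antibody tumours 1 and 3 or untreated tumours 2 and 3 (up to 0.093). Neither Cd274 (-0.38) nor Cd86 (0.24) was called higher in the later untreated p53RB-626 libraries, where 0 of 14 ligands were higher and 3 lower.

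The interferon gamma response was uneven between the antibody-treated tumours. Cxcl9, the chemokine that draws CXCR3-bearing T cells, had 32.8, 21.2 and 148 CPM in the antibody-treated tumours, against 25.3, 16.5 and 5.56 CPM in the untreated tumours (adjusted p = 0.064). Antibody tumour 3 was far above the rest, and antibody tumour 1 was above and antibody tumour 2 within the untreated range. Ifng itself was not called (1.27, adjusted p = 0.26), nor was Cxcl10 (1.22, adjusted p = 0.11). Called higher were the class I genes H2-T23 (1.09, adjusted p = 0.0084) and H2-K1 (0.63, adjusted p = 0.016), the proteasome activator Psme2 (0.70, adjusted p = 0.014) and the GTPases Igtp (1.24, adjusted p = 0.044) and Gbp2 (1.37, adjusted p = 0.030). B2m, the light chain of class I molecules, was slightly lower (-0.27, adjusted p = 0.044). So 5 of 32 members rose (15.6%) and 1 fell, near the share of all genes, with a median of 0.61. Without antibody tumour 2, 9 members rose, and without untreated tumour 2 only 1. In untreated p53RB-626, 0 of 31 were higher and 5 lower in the later libraries, Cxcl9 among the lower (-2.12, adjusted p = 0.028). Calls lost with 1 tumour left out were that of H2-K1 without untreated tumour 2 (up to 0.065), that of Psme2 without untreated tumour 2 (up to 0.056), that of Igtp without antibody tumours 1 and 3 or untreated tumours 2 and 3 (up to 0.11), that of Gbp2 without untreated tumours 2 and 3 (up to 0.093), that of B2m without antibody tumours 1 and 2 or untreated tumours 1, 2 and 3 (up to 0.13).

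Of 28 genes of the type I interferon response 4 rose (14.3%, near the 17.5% of all genes) and 0 fell at adjusted p under 0.05 by edgeR. DESeq2 called 8 higher and 0 lower. Without untreated tumour 2, 1 rose, and without antibody tumour 2 or untreated tumour 3, 2 rose. The untreated p53RB-626 groups had 3 of 28 higher and 2 lower. The 4 that rose after the antibodies were Ifitm3 (1.05 ± 0.13), which restricts viral entry, Bst2 (0.92 ± 0.23), which tethers virions, the ubiquitin-like Isg15 (0.90 ± 0.26) and Mx2 (0.81 ± 0.22). Leaving out 1 tumour ended calls: that of Bst2 without untreated tumour 2 (up to 0.061), that of Isg15 without antibody tumours 2 and 3 or untreated tumours 2 and 3 (up to 0.081), that of Mx2 without antibody tumour 2 or untreated tumours 1, 2 and 3 (up to 0.076). The median of the list was 0.24, against 0.00 over all genes. Between the later and earlier untreated KPB1-B libraries the list median was -1.04, with 0 of 28 called.

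Some MHC class II genes, which present antigen to CD4 T cells, were higher. H2-Aa, the alpha chain of I-A, had 485, 252 and 557 CPM in the antibody-treated tumours, against 153, 138 and 58.3 CPM in the untreated tumours (log2 difference 1.89 ± 0.39, adjusted p = 0.0075), and every antibody-treated tumour exceeded every untreated one. Cd74, the invariant chain (1.30, adjusted p = 0.018), H2-Eb1, the beta chain of I-E (1.15, adjusted p = 0.048), and H2-DMb1, a chain of the peptide exchanger (0.95, adjusted p = 0.028), rose as well. H2-Ab1, the partner chain of H2-Aa, was not called (0.98, adjusted p = 0.078), nor was Ciita, the class II transactivator (0.58, adjusted p = 0.20). The count was 4 of 10 higher (40.0%, against 17.5% of all genes) and 0 lower by edgeR, 6 and 0 by DESeq2, and it ran between 1 without antibody tumour 1 and 7 without antibody tumour 2. Of these calls, some were lost with 1 tumour left out: that of Cd74 without antibody tumour 1 (up to 0.056), that of H2-Eb1 without antibody tumours 1 and 3 or untreated tumours 1, 2 and 3 (up to 0.11), that of H2-DMb1 without antibody tumours 1 and 3 or untreated tumour 2 (up to 0.088). In the later untreated p53RB-626 libraries 1 of 10 was lower and 0 higher, and the list had a median of -0.58, opposite in sign to its 0.86 here.

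Upstream windows of 3 of these genes (RefSeq, GRCm38.p6, 90 bases on the gene's strand) are shown for the core of the class II Y box, ATTGG, which is in capitals, as is its reverse complement CCAAT.
H2-Aa chr17:34287832-34287921 (- strand): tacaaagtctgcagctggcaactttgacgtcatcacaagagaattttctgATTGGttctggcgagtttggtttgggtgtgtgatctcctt
H2-Eb1 chr17:34305758-34305847 (+ strand): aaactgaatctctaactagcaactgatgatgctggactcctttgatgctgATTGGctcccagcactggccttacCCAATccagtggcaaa
H2-DMb1 chr17:34153080-34153169 (+ strand): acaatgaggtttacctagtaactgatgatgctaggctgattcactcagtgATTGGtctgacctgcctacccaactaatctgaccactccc
ATTGG was present on the gene's own strand in 7 of the 7 list members that have a window in the table, against 19.7% of all 32851 windows, or 33.8% with both strands. A match of 5 bases is a description of the letters and not evidence of binding.

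**Figure D2:**
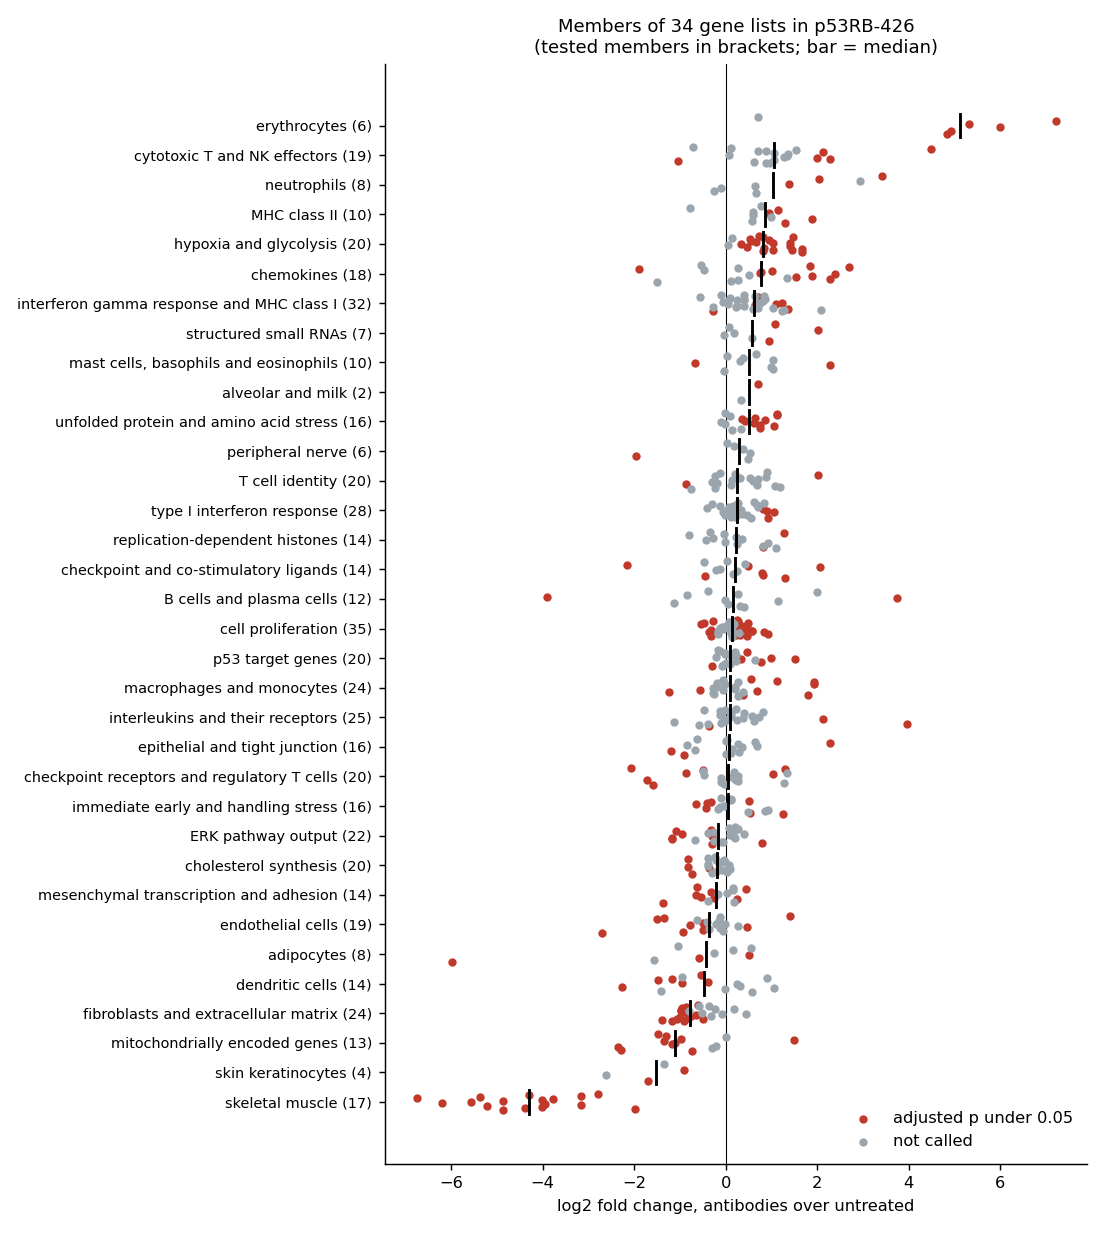
Log2 difference, antibodies minus untreated, of each tested member of 34 gene lists; filled points were called, the bar is the list median, and the number of tested members stands in brackets. Skeletal muscle and extracellular matrix lie left of 0 with medians of -4.30 and -0.78, and hypoxia and glycolysis right of it with 0.83.

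Macrophage genes moved in part, and not as a block. Arg1, the arginase of alternatively activated and suppressive macrophages, had 102, 203 and 213 CPM in the antibody-treated tumours, against 54.2, 56.6 and 38.6 CPM in the untreated tumours (log2 difference 1.79 ± 0.27, adjusted p = 0.0021), and Nos2, the inducible nitric oxide synthase, had 9.53, 18.4 and 24.7 CPM in the antibody-treated tumours, against 4.16, 4.44 and 5.29 CPM in the untreated tumours (log2 difference 1.92 ± 0.31, adjusted p = 0.0027). Mmp12, the macrophage elastase (1.94, adjusted p = 0.0040), Spp1, which encodes osteopontin (1.11, adjusted p = 0.018), Cd14 (0.68, adjusted p = 0.013) and Tyrobp (0.56, adjusted p = 0.0065) also rose. Ccr2, the receptor of recruited monocytes, had 11.5, 8.11 and 13.2 CPM in the antibody-treated tumours, against 28.5, 29.4 and 19.4 CPM in the untreated tumours (log2 difference -1.23 ± 0.21, adjusted p = 0.0035) and Cd68, a lysosomal marker, fell (-0.57, adjusted p = 0.0051). Adgre1, which encodes F4/80, was not called (0.28, adjusted p = 0.18), and neither were Csf1r (0.21), Mrc1 (-0.18) or the C1q genes. Of 24 members 7 rose (29.2%, against 17.5% of all genes), or 4 without untreated tumour 2, the seventh being Aif1 (0.37), and 2 fell, or 4 without antibody tumour 3, with a median of 0.09. With 1 tumour left out, calls were lost: that of Spp1 without untreated tumours 1 and 2 (up to 0.080), that of Cd14 without untreated tumour 2 (up to 0.062), that of Aif1 without antibody tumours 1, 2 and 3 or untreated tumours 2 and 3 (up to 0.13). Later untreated p53RB-626 libraries had 4 of 24 higher and 4 lower, and Arg1 was among the lower (-0.68, adjusted p = 0.0095), opposite to its direction here.

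Few genes of neutrophils were measurable, and 3 of them rose. S100a9, a subunit of calprotectin, rose (3.41 ± 0.75), with 3.27, 14.2 and 1.93 CPM in the antibody-treated tumours, against 0.928, 0.376 and 0.507 CPM in the untreated tumours, and its partner S100a8 too (2.03 ± 0.63), with tumour 2 the highest for both. Csf3, the growth factor of granulocytes, had 2.80, 2.50 and 0.808 CPM in the antibody-treated tumours, against 0.102, 0.129 and 0.161 CPM in the untreated tumours (log2 difference 3.96 ± 0.51, adjusted p = 0.0011), and Il1a, the alarmin interleukin 1 alpha, had 2.95, 4.15 and 3.41 CPM in the antibody-treated tumours, against 0.663, 0.666 and 1.10 CPM in the untreated tumours (log2 difference 2.12 ± 0.26, adjusted p = 0.00098). Only 8 of 14 neutrophil genes could be tested, of which 3 rose (37.5%, against 17.5% of all genes) and 0 fell by edgeR (4 and 0 by DESeq2). The count of rises was 0 without untreated tumour 2 and 5 without antibody tumour 1. Of the 7 tested between the untreated p53RB-626 groups 0 were higher and 1 lower. The third was Mmp8 (1.39), for which the arms overlapped. Calls lost with 1 tumour left out were that of S100a9 without untreated tumour 2 (up to 0.052), that of S100a8 without antibody tumour 2 or untreated tumours 1, 2 and 3 (up to 0.12), that of Mmp8 without antibody tumours 2 and 3 or untreated tumours 1 and 2 (up to 0.13). Chil3, made by neutrophils and by macrophages under type 2 signals, had 12.3, 4.92 and 68.8 CPM in the antibody-treated tumours, against 0.877, 1.05 and 0.235 CPM in the untreated tumours (log2 difference 5.29 ± 1.03, adjusted p = 0.0059), in the same order of tumours as Prf1.

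Some dendritic cell genes were lower. Cd209a (-2.27, adjusted p = 0.011) and Siglech (-1.17, adjusted p = 0.047), markers of monocyte-derived and plasmacytoid dendritic cells, fell, as did Itgae (-1.48, adjusted p = 0.0073), the CD103 integrin that dendritic and T cells share, the receptor Flt3 (-0.96, adjusted p = 0.020), the factor Zbtb46 (-0.54, adjusted p = 0.042) and Fscn1 (-0.39, adjusted p = 0.010). In all 6 of 14 fell (42.9%, against 16.1% of all genes) and 0 rose by edgeR (1 by DESeq2), between 3 and 7 with a tumour left out. Leaving out 1 tumour ended calls: that of Siglech without antibody tumours 1 and 2 or untreated tumours 1, 2 and 3 (up to 0.14), that of Flt3 without antibody tumours 1 and 2 or untreated tumours 2 and 3 (up to 0.069), that of Zbtb46 without antibody tumours 1 and 2 or untreated tumours 1, 2 and 3 (up to 0.12). In the untreated p53RB-626 groups 0 of 14 were higher and 1 lower. Clec9a and Xcr1, which define cross-presenting dendritic cells, were not called (0.25 and -0.95).

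Chemokines were the immune list with the largest share of rises, 9 of 18 tested (50.0%) against 17.5% of all genes, and 1 fall. Ccl6, a chemokine of myeloid cells in mouse, had 109.7, 201 and 149.8 CPM in the antibody-treated tumours, against 34.5, 40.0 and 50.1 CPM in the untreated tumours (log2 difference 1.89 ± 0.22, adjusted p = 0.00077). The neutrophil chemokines Cxcl2 (2.70, adjusted p = 0.014), Cxcl3 (1.84, adjusted p = 0.045) and Cxcl1 (1.01, adjusted p = 0.035) rose, as did Ccl8 (2.40, adjusted p = 0.017), Ccl24 (2.27, adjusted p = 0.013), which draws eosinophils, Ccl4 (1.53, adjusted p = 0.019), Cx3cl1 (0.77, adjusted p = 0.0076) and Ccl9 (0.76, adjusted p = 0.0053). Cxcl14, a chemokine of epithelia and fibroblasts, fell, with 7.96, 11.4 and 21.5 CPM in the antibody-treated tumours, against 47.4, 40.1 and 64.8 CPM in the untreated tumours (log2 difference -1.90 ± 0.34, adjusted p = 0.0043), and every antibody-treated tumour was below every untreated one. Of these calls, some were lost with 1 tumour left out: that of Cxcl2 without untreated tumours 1 and 2 (up to 0.062), that of Cxcl3 without antibody tumour 2 or untreated tumours 1, 2 and 3 (up to 0.15), that of Cxcl1 without antibody tumours 1 and 2 or untreated tumours 1 and 2 (up to 0.12), that of Ccl8 without untreated tumour 2 (up to 0.056), that of Ccl24 without untreated tumour 1 (up to 0.052), that of Ccl4 without antibody tumour 2 or untreated tumours 1 and 2 (up to 0.081). The count of rising chemokines was 4 without untreated tumour 1 or 2. Between the untreated p53RB-626 groups 2 of 18 were higher and 2 lower, and 6 of the 14 not called there rose here. Of 25 tested interleukins, growth factors and receptors, 2 rose (Csf3 and Il1a above) and 1 fell. That is 8% and 4%, against 17.5% and 16.1% of all genes. Between the untreated p53RB-626 groups 3 were higher and 1 lower.

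B and plasma cell genes were near the limit of the data. Igha, the IgA heavy chain, had 2.81, 0.935 and 6.65 CPM in the antibody-treated tumours, against 0.163, 0.408 and 0.198 CPM in the untreated tumours (log2 difference 3.75 ± 0.71, adjusted p = 0.0053), while Ighg1, an IgG heavy chain, had 0.0839, 0.0312 and 0.395 CPM in the antibody-treated tumours, against 5.73, 1.91 and 0.148 CPM in the untreated tumours (log2 difference -3.90 ± 1.19, adjusted p = 0.035), with the arms overlapping. Only 12 of 21 members passed the filter on low counts, and 1 rose and 1 fell (8.33% each way, against 17.5% and 16.1% of all genes). Cd79a, a subunit of the B cell receptor, was under 0.24 CPM in every tumour. With 1 tumour left out, calls were lost: that of Ighg1 without antibody tumours 1 and 2 or untreated tumours 1 and 2 (up to 0.14). Mast cell genes gave 1 rise, the IgE receptor chain Fcer1a (2.29 ± 0.52), and 1 fall, the factor Gata2 (-0.67 ± 0.10), among 10 tested (10% each way, against 17.5% and 16.1% of all genes). The untreated p53RB-626 groups had 1 B cell gene higher of 8, and 1 mast cell gene higher and 2 lower of 9.

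Genes of the cell cycle moved both ways: 14 of 35 rose (40.0%, against 17.5% of all genes) and 6 fell (17.1%, near the 16.1% of all genes), with a median of 0.14. Ccnb1, the mitotic cyclin, had 222, 217 and 197 CPM in the antibody-treated tumours, against 119, 104 and 110.3 CPM in the untreated tumours (log2 difference 0.93 ± 0.08, adjusted p = 0.00029), and Cdc20, an activator of the anaphase-promoting complex, had 290.2, 262 and 259 CPM in the antibody-treated tumours, against 166, 141 and 145 CPM in the untreated tumours (log2 difference 0.84 ± 0.09, adjusted p = 0.00051). Cdk1 (0.58, adjusted p = 0.0040), Cdt1 (0.57, adjusted p = 0.0016), Pcna (0.50, adjusted p = 0.0017) and Mcm7 (0.48, adjusted p = 0.0015), all of replication and division, rose by less. Mki67, the usual proliferation marker, had 235, 190.2 and 255 CPM in the antibody-treated tumours, against 331, 366 and 296 CPM in the untreated tumours (log2 difference -0.55 ± 0.12, adjusted p = 0.011), and the mitotic kinase Plk1 also fell (-0.47, adjusted p = 0.0054). Leaving out a tumour gave 9 to 11 rises, the fewest without antibody tumour 1, and 2 to 6 falls, the fewest without antibody tumour 1 or untreated tumour 2. In the untreated p53RB-626 groups 6 members were higher and 6 lower; without genes called there 9 rose and 3 fell of 23.

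The genes in the model's name were measured as well. Trp53 had 17.4, 15.4 and 19.6 CPM in the antibody-treated tumours, against 33.4, 30.4 and 33.3 CPM in the untreated tumours (log2 difference -0.89 ± 0.11, adjusted p = 0.00087) and Rb1 had 7.06, 7.88 and 8.10 CPM in the antibody-treated tumours, against 9.87, 10.4 and 9.54 CPM in the untreated tumours (log2 difference -0.37 ± 0.12, adjusted p = 0.039). Both were transcribed in every tumour, which says nothing about a deletion or a mutation, because the labels do not give the alleles and reads outside an altered stretch still count. Calls lost with 1 tumour left out were that of Rb1 without antibody tumours 1 and 2 or untreated tumours 1, 2 and 3 (up to 0.13). Of 20 p53 target genes 5 rose (25.0%, against 17.5% of all genes) and 1 fell. Only 2 rose without untreated tumour 2, 3 without antibody tumour 1 or 2 or untreated tumour 1, and none fell without antibody tumour 1 or untreated tumour 2. Cdkn1a, the cell cycle inhibitor p21, had 92.7, 118 and 91.4 CPM in the antibody-treated tumours, against 55.1, 50.3 and 71.0 CPM in the untreated tumours (log2 difference 0.77 ± 0.15, adjusted p = 0.0054), and Gdf15, a stress cytokine, rose (1.51 ± 0.28). In the untreated p53RB-626 groups 7 p53 targets were higher and 3 lower.

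Output genes of the ERK pathway showed 1 rise and 7 falls among 22 (4.55% and 31.8%, against 17.5% and 16.1% of all genes). Phlda1, an early response gene, had 54.8, 52.8 and 56.1 CPM in the antibody-treated tumours, against 114, 116 and 119 CPM in the untreated tumours (log2 difference -1.09 ± 0.07, adjusted p = 0.00013), with no overlap and a spread of a few CPM within each arm. Fosl1, an AP-1 subunit, fell (-0.95, adjusted p = 0.00051), but the later untreated p53RB-626 libraries had it lower by as much (-1.06, adjusted p = 0.00015). The feedback regulators Dusp6 (-0.06), Spry2 (0.06) and Spry4 (0.21) were not called. Without untreated tumour 2, 3 members fell, and without antibody tumour 1 or 2 or untreated tumour 1 or 3, 4 fell. Between the untreated p53RB-626 groups 6 of 22 were higher and 4 lower. Without genes called there 1 rose and 4 fell of 12.

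Genes of fibroblasts and extracellular matrix fell widely, 15 of 24 (62.5%, against 16.1% of all genes) with 0 rising by edgeR (1 by DESeq2). The collagen chains Col5a1 (194, 180.2 and 253 CPM in the antibody-treated tumours, against 359, 391 and 354 CPM in the untreated tumours, log2 difference -0.82 ± 0.13, adjusted p = 0.0023) and Col6a2 (516, 423 and 435 CPM in the antibody-treated tumours, against 702, 853 and 767 CPM in the untreated tumours, log2 difference -0.76 ± 0.11, adjusted p = 0.0018) were the steadiest. Col1a1, the main fibrillar collagen, fell by more but less evenly (-1.39, adjusted p = 0.024), as did Col12a1 (-1.16, adjusted p = 0.0079), Postn, which encodes periostin (-0.95, adjusted p = 0.0077), and Acta2, the actin of myofibroblasts (-0.92, adjusted p = 0.011). Pdgfra (0.19) and Dcn (0.45), which mark fibroblasts, were not called. Leaving out 1 tumour ended calls: that of Col1a1 without antibody tumours 1 and 2 or untreated tumours 1 and 2 (up to 0.077), that of Acta2 without untreated tumour 2 (up to 0.051). Between 8 members, without untreated tumour 2, and 18, without antibody tumour 3, fell in the fits with 1 tumour left out. The untreated p53RB-626 groups gave 4 higher and 1 lower, so 12 falls remained of 19 members not called there. Mesenchymal factors gave 2 rises and 6 falls among 14 (14.3% and 42.9%, against 17.5% and 16.1% of all genes), but at most 1 rise and 2 to 4 falls with a tumour left out, the fewest without untreated tumour 2. The untreated p53RB-626 groups had 2 of them higher and 3 lower. Here Zeb2 (-0.62 ± 0.10) and Snai1 (-0.65 ± 0.10) were lower and Vim slightly higher (0.44 ± 0.11, and adjusted p = 0.069 without untreated tumour 2). Epithelial and tight junction genes gave 1 rise and 2 falls among 16 tested (6.25% and 12.5%, against 17.5% and 16.1% of all genes). With a tumour left out they gave 0 to 3 rises and 1 to 3 falls. Between the untreated p53RB-626 groups 5 of 11 epithelial genes were lower and 0 higher.

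Vascular genes were lower in part. Aplnr, the apelin receptor of sprouting and venous endothelium, had 1.72, 1.25 and 2.599 CPM in the antibody-treated tumours, against 14.3, 12.3 and 9.80 CPM in the untreated tumours (log2 difference -2.71 ± 0.28, adjusted p = 0.00046), and Sox18, an endothelial factor, had 4.999, 4.52 and 6.41 CPM in the antibody-treated tumours, against 17.2, 12.5 and 15.6 CPM in the untreated tumours (log2 difference -1.51 ± 0.18, adjusted p = 0.00076). Kdr, the VEGF receptor (-0.77, adjusted p = 0.0019), Tek, the angiopoietin receptor (-1.35, adjusted p = 0.0020), and Cdh5, the junction cadherin (-0.94, adjusted p = 0.0016), fell, whereas Pecam1 was not called (-0.01, adjusted p = 0.96) and Vwf, made by larger vessels, rose (1.40, adjusted p = 0.044). In all 7 of 19 fell (36.8%, against 16.1% of all genes) and 2 rose. Of these calls, some were lost with 1 tumour left out: that of Vwf without antibody tumours 1 and 2 or untreated tumours 1 and 2 (up to 0.15). In the untreated p53RB-626 groups the list gave 2 higher and 2 lower.

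Skeletal muscle genes, which a mammary tumour holds where it borders or includes muscle, fell in all 17 tested of 18, and in each of the 6 fits with 1 tumour left out. Over all genes 16.1% fell. Acta1, the muscle actin, had 1.33, 1.94 and 4.16 CPM in the antibody-treated tumours, against 88.4, 80.8 and 47.5 CPM in the untreated tumours (log2 difference -4.86 ± 0.43, adjusted p = 0.00030). Summed over the list the level was 9.65, 11.3 and 20.6 CPM in the antibody-treated tumours, against 282, 258 and 169 CPM in the untreated ones. The other arms of the same model spanned 7.20 to 1151 CPM. No member was called between the untreated p53RB-626 groups. Between the later and earlier untreated KPB1-B libraries 0 of 17 were called, with a list median of 2.01, opposite in sign to the -4.30 here.

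Red cell transcripts were higher by the largest factor and with the widest spread. Hbb-bt, a beta globin, had 29.3, 548 and 8.84 CPM in the antibody-treated tumours, against 0.837, 0.505 and 2.72 CPM in the untreated tumours (log2 difference 7.21 ± 1.64, adjusted p = 0.012), antibody tumour 2 alone holding most of it. Of 6 tested members 5 rose (83.3%, against 17.5% of all genes) and 0 fell by edgeR and by DESeq2. Only 1 rose without antibody tumour 2 or untreated tumour 1, and 0 without untreated tumour 2. With 1 tumour left out, calls were lost: that of Hbb-bt without untreated tumour 2 (up to 0.058), that of Hba-a2 without antibody tumour 2 or untreated tumours 1 and 2 (up to 0.082), that of Hbb-bs without antibody tumour 2 or untreated tumours 1 and 2 (up to 0.096), that of Alas2 without antibody tumour 2 or untreated tumours 1 and 2 (up to 0.096). All 5 that rose were also called higher in the later untreated p53RB-626 libraries, Hbb-bt by 2.02. The globins are near-identical copies, and blood content of the samples was not measured. Fat, skin, milk and nerve genes were scarce: 1 of 8 fat genes rose and 2 fell, 2 of 4 skin genes fell, 1 of 2 milk genes rose and 1 of 6 nerve genes fell. The rises are 12.5% for fat and 50% for milk, against 17.5% of all genes. The falls are 25% for fat, 50% for skin and 16.7% for nerve, against 16.1% of all genes. Between the untreated p53RB-626 groups 1 fat gene and 3 skin genes were lower, and no milk or nerve gene was called.

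Of the genes of hypoxia and glycolysis 18 of 20 were higher (90%, against 17.5% of all genes) and 0 lower, by edgeR and by DESeq2. Pgk1, a glycolytic kinase, had 1350.1, 1617 and 1213 CPM in the antibody-treated tumours, against 533, 502 and 469 CPM in the untreated tumours (log2 difference 1.48 ± 0.12, adjusted p = 0.00024). Ldha, lactate dehydrogenase A, had 1527, 1567 and 1401 CPM in the antibody-treated tumours, against 793, 732 and 671 CPM in the untreated tumours (log2 difference 1.03 ± 0.10, adjusted p = 0.00035), and Car9, the carbonic anhydrase induced by low oxygen, had 4.49, 8.32 and 2.63 CPM in the antibody-treated tumours, against 1.72, 1.76 and 1.33 CPM in the untreated tumours (log2 difference 1.67 ± 0.38, adjusted p = 0.012). Bnip3, of mitophagy (1.46, adjusted p = 0.0017), Ndrg1 (1.41, adjusted p = 0.0091), Pdk1, which diverts pyruvate from mitochondria (0.94, adjusted p = 0.0028), and Slc2a1, the glucose transporter (0.82, adjusted p = 0.017), rose too. Every antibody-treated tumour exceeded every untreated one for Pgk1, Ldha and Car9. Hk2 (0.05) and Pfkfb4 (0.14) were not called. Calls lost with 1 tumour left out were that of Slc2a1 without antibody tumours 1 and 2 or untreated tumours 1 and 2 (up to 0.075). The count was 11 without untreated tumour 2, 12 without untreated tumour 1 or antibody tumour 2, 13 without antibody tumour 1 and 18 without antibody tumour 3 or untreated tumour 3. In the untreated p53RB-626 groups 3 of 20 were higher, and 15 of the other 17 rose here. Between the later and earlier untreated KPB1-B libraries 0 of 20 were called, but the list median was 0.67, beside 0.83 here. By mean log2 CPM, antibodies minus untreated, the list median was 0.89 in p53RB-624 and 0.82 in p53RB-426.

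The hypoxia response element has the core ACGTG, and upstream windows of 3 of these genes (RefSeq, GRCm38.p6, 90 bases on the gene's strand) are printed with that core, or its reverse complement CACGT, in capitals.
Bnip3 chr7:138909555-138909644 (- strand): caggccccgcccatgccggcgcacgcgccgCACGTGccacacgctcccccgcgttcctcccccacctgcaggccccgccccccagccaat
Car9 chr4:43506936-43507025 (+ strand): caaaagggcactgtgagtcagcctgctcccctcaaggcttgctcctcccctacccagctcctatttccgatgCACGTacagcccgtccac
Pgk1 chrX:106186920-106187009 (+ strand): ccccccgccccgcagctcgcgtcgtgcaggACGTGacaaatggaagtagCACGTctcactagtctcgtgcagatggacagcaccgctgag
In Bnip3 the matches on the 2 strands overlap. ACGTG on either strand was present in 13 of 18 list members with a window, against 16.6% of all 32851 windows. These letters alone do not show that a factor was bound.

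Of 16 genes of endoplasmic reticulum and amino acid stress 10 were higher (62.5%, against 17.5% of all genes) and 0 lower by edgeR and by DESeq2. Without untreated tumour 2 the count was 5, and without antibody tumour 2 it was 6. Phgdh, the first enzyme of serine synthesis, had 573, 637 and 587 CPM in the antibody-treated tumours, against 348, 303 and 333 CPM in the untreated tumours (log2 difference 0.87 ± 0.09, adjusted p = 0.00044). Slc7a11, the cystine transporter (1.13, adjusted p = 0.0030), Ddit3, which encodes CHOP (1.05, adjusted p = 0.010), Trib3 (1.12, adjusted p = 0.028) and Herpud1 (0.61, adjusted p = 0.0013) rose. Leaving out 1 tumour ended calls: that of Trib3 without antibody tumours 1 and 2 or untreated tumours 1 and 2 (up to 0.10). The untreated p53RB-626 groups gave 6 higher and 3 lower, and 6 of the other 7 members rose here. Later against earlier untreated KPB1-B libraries had 1 of 16 higher and a list median of 0.55, beside 0.52 here. Immediate early and handling genes moved both ways, 3 up (18.8%, near the 17.5% of all genes) and 4 down (25%, against 16.1%) of 16. The counts were as few as 1 each way with a tumour left out, and 2 and 4 between the untreated p53RB-626 groups. Jun had 144, 148 and 165 CPM in the antibody-treated tumours, against 243, 234 and 237 CPM in the untreated tumours (log2 difference -0.64 ± 0.08, adjusted p = 0.00077). Of 20 genes of cholesterol synthesis 4 fell and 0 rose by edgeR (5 and 0 by DESeq2), Hmgcs1 among them (-0.82 ± 0.15). That is 20.0%, near the 16.1% of all genes, with 2 falls without untreated tumour 1 or 2, and 4 of 20 were also lower between the untreated p53RB-626 groups.

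Transcripts encoded in mitochondria made up 1.495% to 1.89% of the counts in the antibody libraries, against 2.74% to 3.23% in the untreated ones. mt-Nd2, a subunit of complex I, had 817, 1013 and 867 CPM in the antibody-treated tumours, against 2423, 2052 and 2407 CPM in the untreated tumours (log2 difference -1.35 ± 0.12, adjusted p = 0.00029). Of 13 genes 9 fell (69.2%, against 16.1% of all genes) and 1 rose, the last being mt-Nd3 (1.501 ± 0.32). The untreated p53RB-626 groups gave the same count, 9 lower and 1 higher, with mt-Nd2 at -0.87 and mt-Nd3 at 1.61. Later against earlier untreated KPB1-B libraries had 5 of 13 lower and 0 higher, and a list median of -1.48, beside -1.10 here. Histone genes gave 2 rises among 14 (14.3%), and structured small RNAs, which poly(A) selection should remove, 3 rises among 7 (42.9%), against 17.5% of all genes. Untreated p53RB-626 libraries of the later set had 2 histone genes lower and no small RNA called.

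The antibody-treated tumours also differed among themselves, as sums over whole lists show. The cytotoxic effector list held 73.7, 40.5 and 181 CPM in antibody tumours 1 to 3, against 41.5, 42.7 and 31.0 CPM in untreated tumours 1 to 3. Antibody tumour 2 was thus within the untreated range, while tumour 3 was the highest of all. The T cell identity list held 27.2, 17.5 and 62.2 CPM in antibody tumours 1 to 3, against 40.6, 35.9 and 20.9 CPM in untreated tumours 1 to 3, where antibody tumours 1 and 2 lay below the untreated median. The class II list held 2251, 1179 and 2589 CPM in antibody tumours 1 to 3, against 1012, 980.5 and 471 CPM in untreated tumours 1 to 3, with no overlap. Neutrophil genes had another order, with 21.7, 46.6 and 36.8 CPM in antibody tumours 1 to 3, against 24.6, 19.8 and 19.7 CPM in untreated tumours 1 to 3, and antibody tumour 2 the highest. The chemokine list held 503, 587 and 729 CPM in antibody tumours 1 to 3, against 389, 360.0 and 383 CPM in untreated tumours 1 to 3, and the hypoxia list 9231, 10516 and 7973 CPM in antibody tumours 1 to 3, against 5321, 4962 and 5219 CPM in untreated tumours 1 to 3. In both of these all antibody-treated tumours exceeded all untreated ones, with tumour 3 the highest for chemokines and tumour 2 for hypoxia.

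Outside the fits with a tumour left out, calls of 26 genes named here were lost in another setting, with adjusted p up to 0.22: Cd4, Tnfrsf4, B2m, H2-Eb1, Arg1, Ccr2, Aif1, Mmp8, Siglech, Ccl9, Mki67, Slc2a1 and Trib3 with all 15 p53RB-426 tumours in the fit, Cd4, Tnfrsf4, Cd74, H2-Eb1, H2-DMb1, Aif1, Mmp8 and Cxcl1 with 18 tumours of the p53RB models in the fit, Gzmb, Pdcd1lg2, Igtp, Gbp2, H2-Eb1, Aif1, S100a8, Cxcl3 and Ighg1 by limma on the authors' normalized table, Pdcd1lg2, Igtp, Vwf and Trib3 by DESeq2, Pdcd1lg2, Igtp, H2-Eb1, Aif1 and Siglech with upper quartile factors, B2m, Zbtb46 and Rb1 with no filter on low counts, Aif1 with the stricter filter, Aif1 with DESeq2 size factors.

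**Figure D3:**
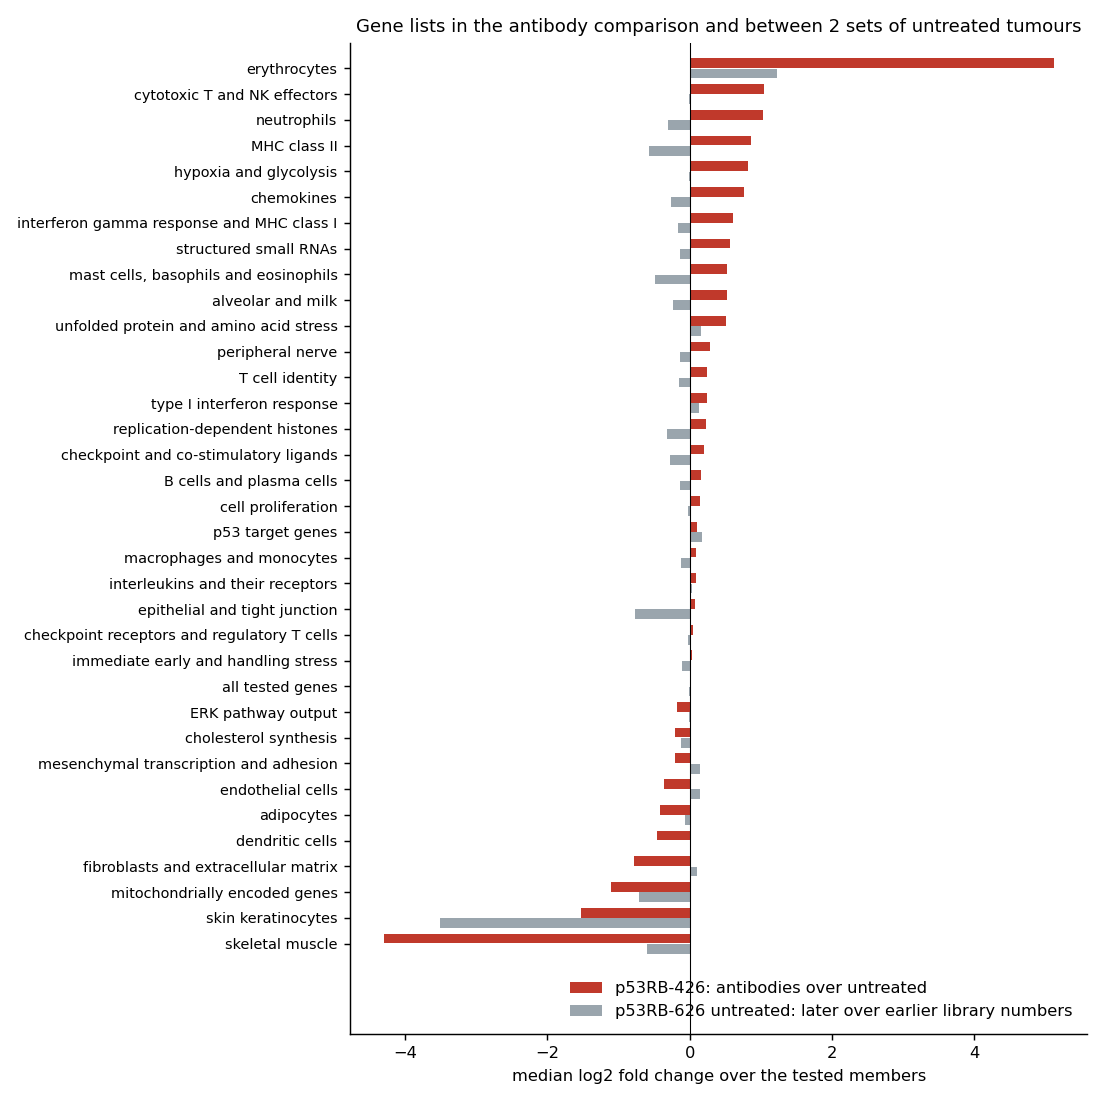
Median log2 difference over the tested members of each gene list and over all tested genes. Bars show the antibodies minus untreated in p53RB-426, and the later minus the earlier untreated libraries of p53RB-626. In that order the medians are -4.30 and -0.59 for muscle, -0.78 and 0.10 for matrix, and 0.83 and -0.01 for hypoxia. For mitochondrial genes they are -1.10 and -0.70.

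Beside the 9 p53RB-426 tumours of the drug arms, the antibody-treated tumours stood outside for some genes and inside for others (CPM scaled over all 15 libraries, a description with no test). Prf1 lay at 8.20 to 77.8 CPM in the antibody-treated tumours, 0.317 to 6.32 CPM in the drug arms and 0.816 to 2.08 CPM in the untreated tumours. Cd274 lay at 11.2 to 23.1, 4.16 to 11.1 and 6.08 to 7.49 CPM in the same order, and H2-Aa at 247 to 555, 25.4 to 127 and 57.5 to 152 CPM. For these 3 genes the antibody arm was above all 12 other tumours. Foxp3 lay at 0.510 to 1.53 CPM, against 0.534 to 1.96 CPM in the drug arms, so the untreated tumours with 1.79 to 3.52 CPM were the high ones. Trp53 likewise lay at 15.2 to 19.6 CPM, inside the 12.6 to 26.0 CPM of the drug arms, which were also below the 29.9 to 33.1 CPM of the untreated tumours. Acta1 spanned 0.194 to 302 CPM in the drug arms, which takes in both other arms. Pgk1 lay at 1207 to 1589 CPM, above the 489 to 1192 CPM of the drug arms. Phlda1 lay at 51.9 to 55.9 CPM, against 63.1 to 101 CPM in the drug arms and 113 to 117 CPM in the untreated tumours. mt-Nd2 lay at 809.5 to 996 CPM, below the 1848 to 2742 CPM of the drug arms, whose libraries all belong to the same set as the untreated ones.

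**Figure D4:**
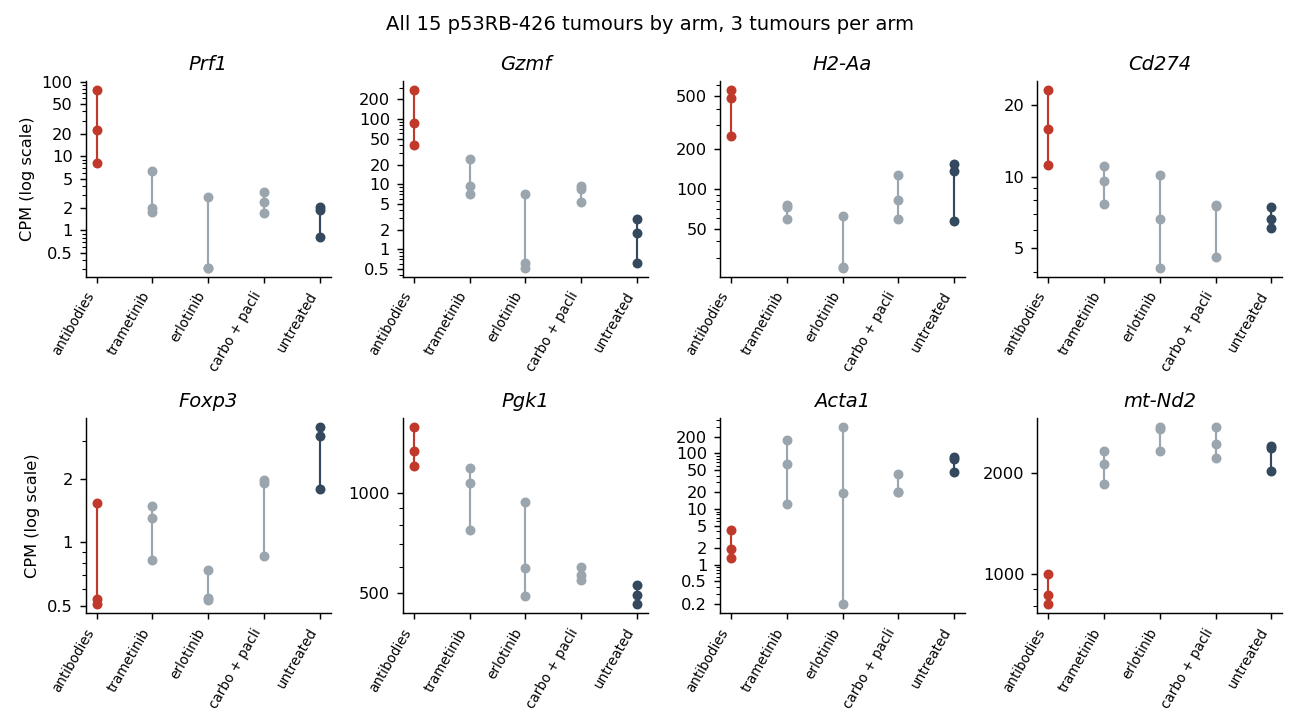
CPM of 8 genes in all 15 p53RB-426 tumours by arm, on log axes, scaled over the 15 libraries; points are tumours and lines span an arm, with antibodies at the left and untreated at the right. Prf1, Gzmf, H2-Aa, Cd274 and Pgk1 of the antibody arm lie above every other tumour, and mt-Nd2 below every other tumour.

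Whether the response differed from that of other models was tested as a difference of differences, for which all comparisons share the 6 p53RB-426 tumours. In p53RB-624, and in the p53RB-626 libraries tested below, both arms have the low level of the 4 predicted genes. The differences from these models therefore keep the library-set difference of p53RB-426, which cannot be told apart from treatment. The same holds in part for the mean of the other models. Against p53RB-624, 1980 of 19299 genes (10.3%) were higher in this difference and 2531 (13.1%) lower. Prf1 was among the higher (3.48 ± 0.99, adjusted p = 0.018), as were Gzmf (5.09 ± 0.99, adjusted p = 0.0017) and Chil3 (5.73 ± 1.33, adjusted p = 0.0057), while the acute phase protein Saa3 was lower (-4.11 ± 1.41, adjusted p = 0.045). Within p53RB-426 itself Saa3 changed by -0.85 in mean log2 CPM. Of 35 proliferation genes 13 were higher and 1 lower, and of 24 matrix genes 0 were higher and 12 lower. Of 19 endothelial genes 2 were higher and 7 lower, and of 17 muscle genes 1 was higher and 0 lower. Over all genes 10.3% were higher and 13.1% lower.

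Against p53RB-626, with the 3 untreated libraries of the later set, 1917 of 19299 genes (9.93%) were higher and 1750 (9.07%) lower. Prf1 (2.86 ± 0.95, adjusted p = 0.046) and Gzmf (4.34 ± 0.97, adjusted p = 0.0063) were again higher, and Chil3 was not called (2.39 ± 1.27, adjusted p = 0.20). Of 35 proliferation genes 11 were higher and 0 lower, and of 16 genes of unfolded protein and amino acid stress 8 were higher and 0 lower. Over all genes 9.93% were higher and 9.07% lower. The later and the earlier untreated p53RB-626 libraries used together gave 1061 and 878. limma on the authors' normalized table gave 815 higher and 3118 lower, with the median of all genes moved by -0.19.

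The third test took the mean response of the other 10 models with both arms (67 tumours), and called 444 of 23122 genes higher (1.92%) and 355 lower (1.54%, or 3.46% in both directions). Without untreated tumour 2 the total was 252, against 799 with all tumours, and without antibody tumour 2 the genes called lower numbered 101. limma gave 313 and 761, a split of 29.1% higher where edgeR had 55.6%. Prf1 was higher (3.97 ± 0.76, adjusted p = 0.0013), and so were Gzme (5.61 ± 0.90, adjusted p = 8.4e-05) and Chil3 (4.71 ± 1.31, adjusted p = 0.028). Gzmf was not called (5.13 ± 2.13, adjusted p = 0.18), and neither were Gzmd and Gzmg (adjusted p = 1 for both, with standard errors too large to use). Aplnr (-2.39 ± 0.56, adjusted p = 0.0087) and Cxcl14 (-2.02 ± 0.59, adjusted p = 0.039) were lower. Of 20 hypoxia genes 2 were higher, of 35 proliferation genes 2 and of 6 red cell genes 5, against 1.92% of all genes. Of 19 endothelial genes 4 were lower, against 1.54% of all genes. No member of the matrix, muscle, interferon gamma or class I lists was called.

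In each model the difference of mean log2 CPM, antibodies minus untreated, shows where p53RB-426 lies. For Prf1 it was 4.02 in p53RB-426, and between -1.16 and 1.68 in the other 10 models. For Foxp3 it was -1.82 in p53RB-426, and between -0.46 and 1.76 in the other 10 models, for Cd4 -0.92 in p53RB-426, and between -0.35 and 1.03 in the other 10 models. The range of the other models did not reach p53RB-426 for these genes. Of these, only Prf1 was called in the test against the mean of the other models, while Foxp3 and Cd4 were not. Cd274 (1.25, other models -0.67 to 1.39), H2-Aa (1.93, other models -0.59 to 2.79) and Gzmb (1.82, other models -0.49 to 3.07) lay inside the range. Acta1 was lower after the antibodies in all 10 other models, -6.18 to -0.94, beside -4.96 here.

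T12, added after the data were seen, has arms that differ in the 4 predicted genes as those of p53RB-426 do: 0 to 2.64 CPM in its antibody libraries, against 673 to 847 CPM in its untreated ones. Against T12, 1525 of 18615 genes (8.19%) were higher and 941 (5.06%) lower, Prf1 (3.98 ± 1.02, adjusted p = 0.027) and Gzmf (4.18 ± 1.21, adjusted p = 0.042) among the higher, while Chil3 was not called (4.69 ± 2.21, adjusted p = 0.18). limma gave 763 and 3556, with the median moved by -0.30. The T12 arms differ in more than treatment: Glp1r, a hormone receptor, lay at 0.175 to 0.343 CPM in its antibody-treated tumours, against 20.0 to 83.0 CPM in its untreated tumours. In p53RB-426 Glp1r lay at 452 to 573 CPM in the antibody-treated tumours, against 339.6 to 443 CPM in the untreated tumours. Outside T12 and the p53RB models the highest level in any arm was 5.37 CPM. Alx1, a homeobox factor, was at 0 CPM in all antibody-treated T12 tumours, against 1.17 to 3.92 CPM in the untreated ones. Whether the untreated T12 libraries hold material of another model was not tested, so the differences from T12, and the mean of the other models where T12 is included, carry that doubt. With T12 left out of the other models, the mean response of the remaining 9 gave 585 genes higher and 462 lower.

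**Figure D5:**
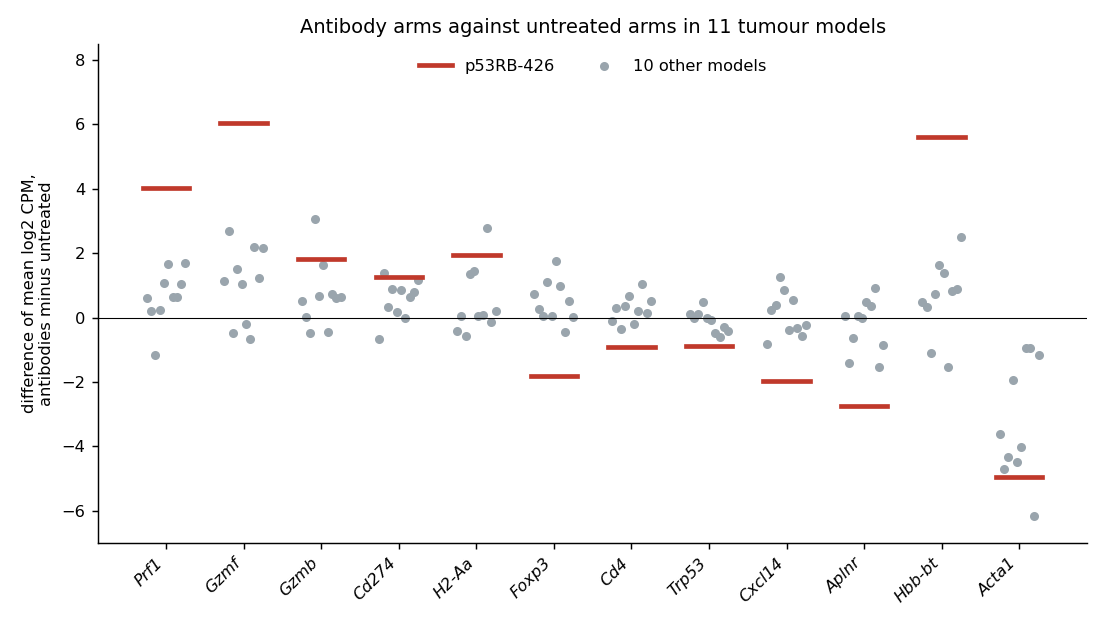
Difference of mean log2 CPM, antibodies minus untreated, for 12 genes in p53RB-426 (bars) and in the 10 other models with both arms (points, spread sideways for legibility). p53RB-426 lies outside the other models for Prf1, Gzmf, Foxp3, Cd4, Trp53, Cxcl14, Aplnr and Hbb-bt, and inside their range for Gzmb, Cd274, H2-Aa and Acta1.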

How the data were processed

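Poly(A) RNA of homogenised frozen tumours was sequenced after TruSeq mRNA library preparation, per the labels' protocols; whether they keep strand is not stated in those labels. The submitters' processing notes name Salmon, STAR, Picard, SAMtools and mm10, without versions. The authors deposited Salmon's estimated counts for 55291 gene symbols (8.35% of values not whole) and a table of normalized signal. That deposited signal was checked to be each count divided by the 75th percentile of the library's values above 0, times 1000. Gene positions came from GENCODE M21 (53292 symbols found). Reads of near-identical copies and of overlapping or antisense genes cannot be separated.

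Estimated counts were rounded, filtered with filterByExpr and scaled by TMM, and tested with edgeR 4.0.16 (R 4.3.3) over the 6 tumours, with Benjamini-Hochberg adjustment over all genes tested. SE is the log2 difference divided by the root of the F statistic. Differences between models used interaction contrasts over 18 tumours of the p53RB models, 73 tumours of 11 models, or p53RB-426 with T12. Alternatives used DESeq2 1.42.0, limma 3.58.1 on log2(signal + 1), other filters and factors, and 1 tumour left out. Library totals over the series were 12074737 to 226179812 counts. The tests measure the spread between tumours, which includes counting error. Scripts were tested on simulated data.

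Named genes were, among called genes of mean log2 CPM of at least 1 whose arms did not overlap, the 10 largest rises and falls without predicted genes or pseudogenes; up to 2 called members of smallest p in each of 34 lists; a set of genes always named; and 4 genes each way per difference between models. Some genes that these rules take are not reported here. Other list members were named after their values were seen. The members and lists were chosen with earlier results of these data known. Replicate numbers follow library order and pair nothing.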

Additional observations from a re-analysis of the deposited data

Results flagged for a closer look

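Tests of the difference between models called many genes. Those against p53RB-624 and p53RB-626 keep the library-set difference of p53RB-426, so treatment and library set cannot be told apart in them. Against p53RB-624 the antibody response of p53RB-426 was higher for 1980 genes and lower for 2531. On the log2 scale, p53RB-426 minus p53RB-624, the difference was 5.84 for Hbb-bt, 5.73 for Chil3, 5.09 for Gzmf, 4.93 for Gzmd and 3.48 for Prf1. It was -9.70 for Erdr1, -6.18 for Scand1, -4.51 for Fam177a and -4.11 for Saa3. A difference between models also holds the change in the other model. By mean log2 CPM, antibodies minus untreated, the change within p53RB-426 was -3.08 for Erdr1, -1.36 for Scand1, -0.55 for Fam177a and -0.85 for Saa3. Erdr1 was also among the genes that differed between the untreated p53RB-626 libraries (-3.34).

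Against p53RB-626, 1917 genes were higher and 1750 lower. The difference was 5.42 for Hbb-bt, 4.90 for Hba-a2, 4.34 for Gzmf, 4.01 for Gzmd and 2.86 for Prf1. It was -5.20 for Myh2, a myosin of fast muscle, -4.95 for Trim71, -3.33 for Fhl1 and -3.09 for Alx1. Within p53RB-426 the change in mean log2 CPM was -7.04 for Myh2, -0.70 for Trim71, -3.27 for Fhl1 and -0.15 for Alx1.

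Against the mean of the other 10 models, 444 genes were higher and 355 lower; the difference was 6.66 for Hbb-bt, 5.80 for Hba-a2, 5.61 for Gzme, 4.89 for Hbb-bs and 3.97 for Prf1. The values were -2.51 for mt-Co2, -2.39 for Aplnr, -2.26 for Lbp and -2.02 for Cxcl14.

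Against T12, 1525 genes were higher and 941 lower; the difference was 10.7 for Alx1, 7.94 for Glp1r, 7.61 for Hbb-bt, 4.78 for Gzmd, 4.18 for Gzmf and 3.98 for Prf1. The values were -3.51 for Aplnr, -3.49 for Itgad, -2.86 for Ptprz1 and -2.66 for Ccr2. Within p53RB-426 the change in mean log2 CPM was -2.74 for Aplnr, -0.05 for Itgad, -0.92 for Ptprz1 and -1.23 for Ccr2. Alx1 and Glp1r are among the transcripts that separate the untreated from the antibody libraries of T12 itself. All 4 sets of differences share the 6 p53RB-426 tumours, so they are not independent of each other.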

How the results depend on the processing

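No paired analysis was possible because the replicate numbers only follow library order. No called gene among those named changed sign under any setting run, though genes that were not called (Cd3e and Ctla4 among them) did. For the 104 genes that the naming rule took in the main comparison, leaving out 1 tumour kept the side of the threshold in 545 fits, ended a call in 75 and made one in 4. The other settings kept it in 753 fits, ended a call in 23 and made one in 8. With 1 tumour left out, the counts ran over 3367 to 5968 genes (1678 to 3071 higher, 1689 to 2897 lower) for the antibodies against untreated, 3373 to 4388 genes (1438 to 1924 higher, 1935 to 2466 lower) for the difference from p53RB-624, 2610 to 3963 genes (1272 to 2051 higher, 1164 to 1912 lower) for the difference from p53RB-626, 252 to 605 genes (134 to 346 higher, 101 to 259 lower) for the difference from the mean of the other models and 1167 to 2679 genes (772 to 1671 higher, 395 to 1008 lower) for the difference from T12. Leaving out genes called between the untreated p53RB-626 libraries gave 2031 higher and 1563 lower for the antibodies against untreated, 1086 higher and 1125 lower for the difference from p53RB-624, 1095 higher and 943 lower for the difference from p53RB-626, 295 higher and 176 lower for the difference from the mean of the other models and 973 higher and 622 lower for the difference from T12. The fit with all 6 untreated p53RB-626 tumours gave 1939 (1061 higher, 878 lower) for the difference from p53RB-626. limma on the authors' table gave 3933 (815 higher, 3118 lower) for the difference from p53RB-626, 1074 (313 higher, 761 lower) for the difference from the mean of the other models and 4319 (763 higher, 3556 lower) for the difference from T12. DESeq2 gave 1372 (750 higher, 622 lower) for the difference from the mean of the other models and 3823 (2256 higher, 1567 lower) for the difference from T12. No filter on low counts gave 533 (319 higher, 214 lower) for the difference from the mean of the other models. Each setting other than leaving out a tumour is given where a count moved by more than 1.5 times in at least 1 direction; with 1 tumour left out, no count for the difference from p53RB-624 moved that far. The cause was not tested, except that the fits with fewer tumours have less information and the counts without the p53RB-626 genes drop genes by construction. In the main comparison the total was 6316 by DESeq2, 5509 by limma and 4310 with the stricter filter of at least 10 CPM in 3 tumours. limma gave 2364 higher and 3145 lower, so falls outnumbered rises, as they did with upper quartile factors, the stricter filter, the fit over 18 tumours and the fit without untreated tumour 2. Limits of these data are 3 tumours per arm, an unstated time and dose, and arms that coincide with library sets.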
